A study of Homo sapiens with 2 samples.

Results

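The 55 genes described here encode the nuclear pore complex and the carriers that move proteins and RNA through it. They were chosen by symbol from the 19970 protein-coding genes on chromosomes 1 to 22 and X in the RefSeq annotation of GRCh38.p14. The choice took symbols that start with NUP, IPO, KPNA or TNPO followed by a digit, together with KPNB1, 6 exportin genes (XPO1, XPO4, XPO6, XPO7, XPOT and CSE1L), RAN, RANBP2, RANGAP1, RCC1, TPR, NDC1, POM121 and AAAS. The rule uses symbols and no measured value, but it was drawn up with earlier results of these data known. Symbols beginning with NUP also took in NUP210L and NUP62CL, paralogs of NUP210 and NUP62, which are kept apart from the structural nucleoporins below.

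The nuclear pore is a ring of repeated subcomplexes set in the nuclear envelope. Y-shaped complexes form its outer rings, an inner ring holds the channel nucleoporins, whose disordered repeats make the permeability barrier, and filaments and a basket extend into the cytoplasm and the nucleus. Importin beta family carriers bring cargo in, often through an importin alpha adaptor, and exportins carry it out. Ran drives both directions, because its exchange factor RCC1 sits on chromatin and its GTPase activator RANGAP1 sits at the cytoplasmic face of the pore.

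Binding of KDM1B (LSD2), a flavin-dependent demethylase of histone H3 lysine 4, was mapped by ChIP-seq in the human cell line MDA-MB-231, which stems from a triple-negative breast cancer. The cells stably carried KDM1B with 3 FLAG tags from the retroviral vector pOZ, and this holds for both groups. The ChIP group was 1 library made with an anti-FLAG M2 antibody, and the input group was 1 library of the same cells. The study set out to chart where KDM1B sits in the genome. With 1 library per group there is no replicate error, no test is given, and the binomial intervals below cover counting error over genes only. The deposited list, which has no header, held 78536 peaks, each with a value from the authors. That value is read here as a log2 ratio of ChIP over input and serves only to describe and rank peaks within the list. Sequencing depth is unknown, because the list gives no read counts. Cells without the tag and the RNA level of these genes were not analysed here.

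KDM1B peaks were present at nearly all of these genes. A peak midpoint lay inside the gene or up to 5 kb outside its span in 53 of the 55 genes, or 96.4% (exact Clopper-Pearson 95% interval 87.5 to 99.6%), against 67.5% of all protein-coding genes. The exceptions were KPNA5, an importin alpha, and NUP62CL. The 53 genes held 819 different peaks, and 34 of the 55 genes (61.8%) had 10 or more, against 12.5% of all protein-coding genes. The median was 12 peaks per gene, against 2 over all protein-coding genes. Long genes have more room for peaks, and these genes had a median span of 63.6 kb, against 24.2 kb over all protein-coding genes. By span class, a peak was found in 2 of 2 of these genes under 10 kb, against 50.6% of all protein-coding genes of that class, and in 8 of 8 of 10 to 30 kb, against 69.4%. It was found in 33 of 35 of 30 to 100 kb, against 77.5%, and in 10 of 10 of 100 kb or more, against 76.7%. In the class of 30 to 100 kb the medians were 15 peaks in the pore and transport genes and 3 in the 5474 protein-coding genes of that class.

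Peaks filled large parts of many of these genes. They covered a median of 30.1% of the span of the 55 genes (quartiles 10.0 and 64.0%), against 1.52% over all protein-coding genes (quartiles 0 and 13.5%). At least 25% of the span was covered in 30 genes (54.5%), against 16.8% of all protein-coding genes. At least 50% was covered in 19 genes (34.5%, interval 22.2 to 48.6%), against 7.28%. At least 75% was covered in 11 genes, against 2.43%. Coverage above the median of all protein-coding genes was found in 51 of the 55. Span classes were read separately. Among genes of 10 to 30 kb, 4 of 8 pore and transport genes were covered at 50% or more, against 10.1% of all protein-coding genes of that class. Among those of 30 to 100 kb the count was 13 of 35 (37.1%), against 7.36%, and among those of 100 kb or more 1 of 10, NUP98, against 0.925%. Below 10 kb there were 2 genes, IPO4 and RAN, of which IPO4 was covered at 50% or more, against 8.26% of that class.

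**Figure D1:**
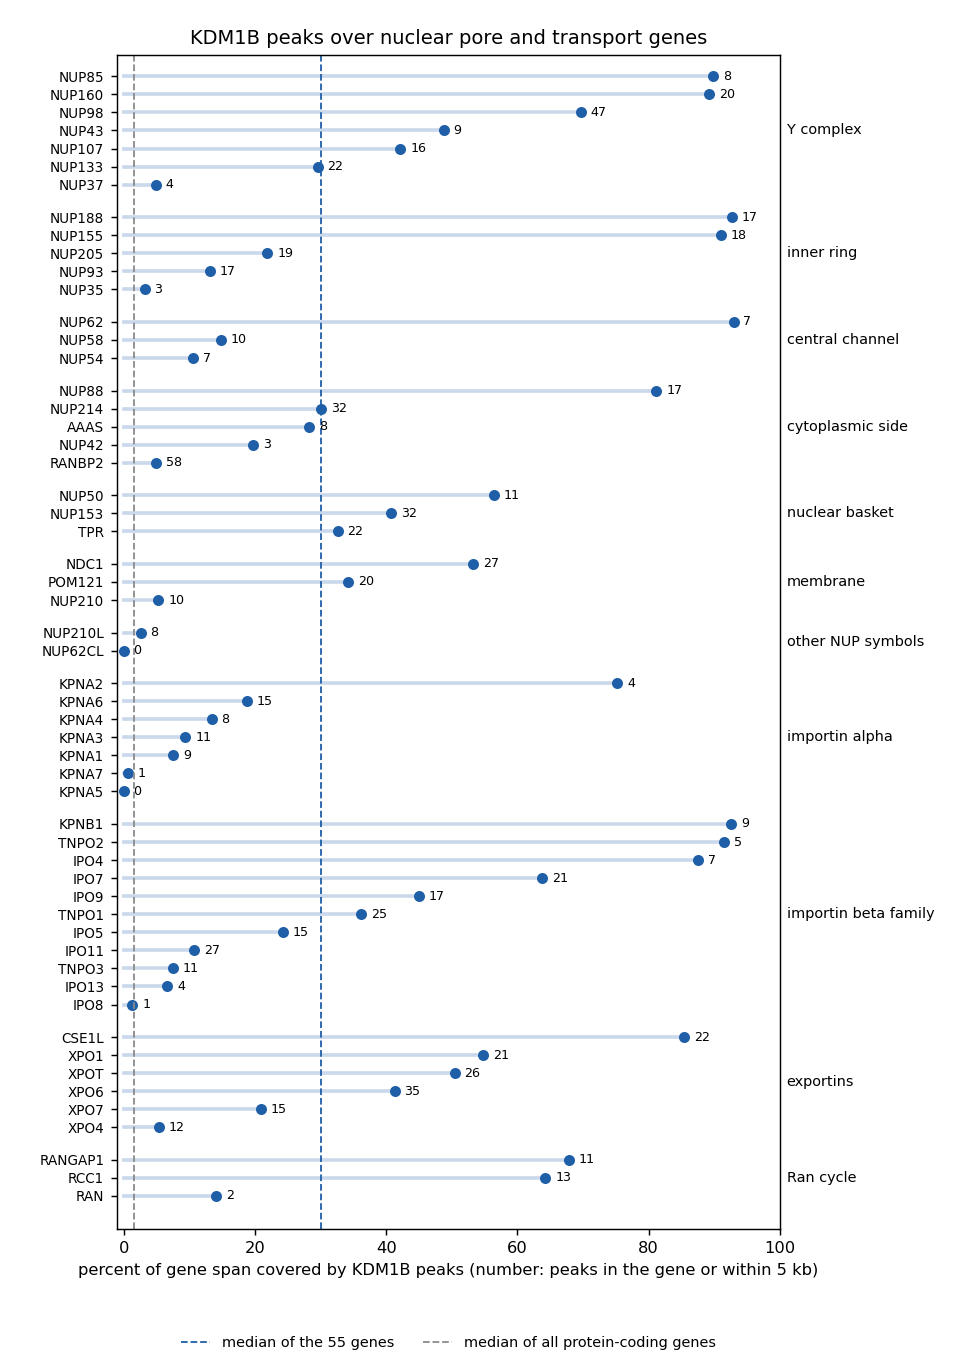
Percent of each gene's span covered by KDM1B peaks (x axis) for the 55 pore and transport genes, grouped by role; the number beside each point is the count of peak midpoints in the gene or up to 5 kb outside. The dashed lines mark the median of the 55 genes, 30.1%, and of all protein-coding genes, 1.52%. Every role except the other NUP symbols has a member above 50%. In the central channel this is NUP62 alone, whose peaks are all shared with another coding gene.

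**Figure D2:**
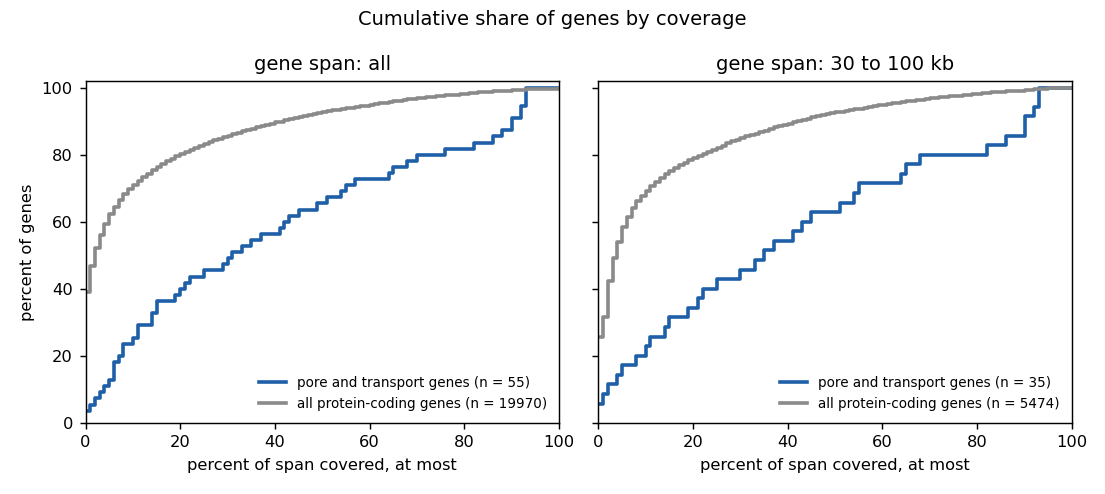
Cumulative percent of genes (y axis) covered up to a given percent of their span (x axis), for all spans (left; 55 pore and transport genes, 19970 protein-coding genes) and for spans of 30 to 100 kb (right; 35 and 5474 genes). The line of the pore and transport genes stays below that of all protein-coding genes up to about the highest coverage the pore genes reach, 92.9%.

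The most covered genes came from several parts of the transport machinery. NUP62, which encodes the channel nucleoporin p62, was covered over 92.9% of its 22.7 kb (chromosome 19, 49906825 to 49929504) by 7 peaks, all of which also lay in or near the overlapping gene IL4I1. Its strongest peak had a log2 ratio of 3.86 (49927179 to 49927679). The inner ring gene NUP188 was covered over 92.7% of 59.4 kb (chromosome 9, 128947699 to 129007096) by peaks that numbered 17 with the flanks, of which the strongest, 3.62, lay before the gene (128942754 to 128943317). KPNB1, the gene of importin beta 1, the main carrier of nuclear import, was covered over 92.5% of 35.6 kb (chromosome 17, 47649919 to 47685505) with 9 peaks, none of them shared with another coding gene and the strongest at 3.30 (47675639 to 47676643). TNPO2, a transportin that imports RNA-binding proteins, reached 91.5% of 24.7 kb (chromosome 19, 12699201 to 12723932) with 5 peaks, the strongest of which, 3.58, ran from 12698327 to 12712787. The inner ring gene NUP155 reached 91.0% of 83.0 kb (chromosome 5, 37288137 to 37371106) with 18 peaks, and was the longest of the 11 genes covered at 75% or more; its strongest peak had 3.53 (37293252 to 37298512). Of the Y complex, NUP85 reached 89.8% of 30.1 kb (chromosome 17, 75205679 to 75235758) with 8 peaks, the strongest at 3.56 (75224896 to 75227888). NUP160 reached 89.2% of 70.4 kb (chromosome 11, 47778118 to 47848544) with 20 peaks, the strongest at 3.29 (47822097 to 47824175). IPO4, an importin that carries histones among other cargo, reached 87.5% of 8.60 kb (chromosome 14, 24180219 to 24188816), and all 7 of its peaks were shared with the neighbouring genes REC8 or TM9SF1. The strongest of them had 3.14 (24179998 to 24185883). CSE1L, which returns importin alpha to the cytoplasm, reached 85.3%, NUP88 on the cytoplasmic side 81.2%, and the importin alpha gene KPNA2 75.2%. These 11 genes ranked between 101 and 482 by coverage among the 19970 protein-coding genes.

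Peaks near a second coding gene made up a share close to that of the whole list. Of the 819 peaks, 113 (13.8%) also lay in the window of another protein-coding gene, while 13.3% of the whole list, which also holds peaks near no coding gene, lay in the windows of 2 or more. With shared peaks taken out, 16 of the 55 genes (29.1%) were still covered at 50% or more, against 3.89% of all protein-coding genes treated in the same way. NUP62 and IPO4 then fell to 0% and XPOT, an exportin of tRNA, to 48.2%, while NUP188 stood at 73.2%, NUP85 at 74.8% and NUP88 at 54.7%. Another 13 of the 19 most covered genes kept 50% or more, among them KPNB1, TNPO2, NUP155, NUP160 and CSE1L, whose coverage held no shared peak.

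Peaks over these genes were wider than those of the whole list, with ratios close to the list's. Their median width was 961 bp (upper quartile 1628 bp), against 804 bp (upper quartile 1046 bp) over the whole list. Peaks of 5 kb or more made up 38 of the 819 (4.64%), against 1.42% of the list. At least 1 such peak overlapped the span of 18 of the 55 genes (32.7%), against 4.16% of all protein-coding genes. The widest was an 18.3 kb peak in NUP188 (chromosome 9, 128980566 to 128998915, log2 ratio 3.51). It was followed by 15.5 kb in CSE1L (log2 ratio 2.98), 14.5 kb in TNPO2 (3.58), 13.7 kb in NUP160 (3.24) and 12.2 kb in NUP155 (3.44), which carried 8 peaks of 5 kb or more. The median log2 ratio of the 819 peaks was 2.96 (quartiles 2.63 and 3.43), against 2.99 over the whole list (quartiles 2.58 and 3.52). Log2 ratios above 4 made up 9.52% of the peaks of these genes, against 12.7% of the list. The strongest peak of a gene had a median log2 ratio of 3.69 in the 53 genes, against 3.72 in all protein-coding genes with a peak. Peak number, with a median of 12 in the 55 genes and 2 over all protein-coding genes, was not matched here.

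**Figure D3:**
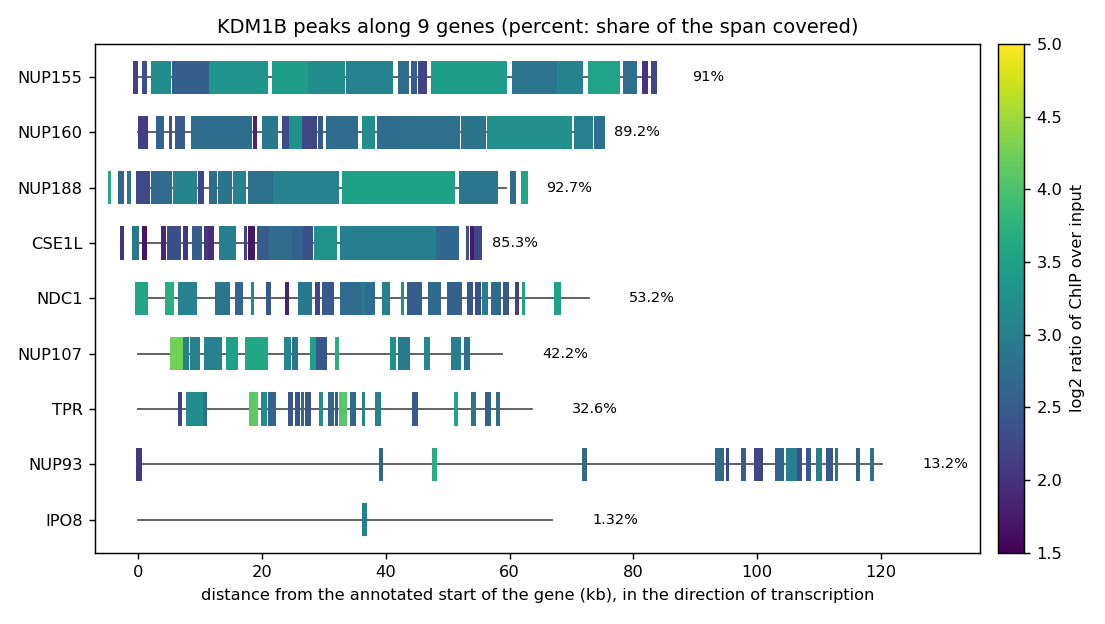
KDM1B peaks along 9 of the genes, drawn from the annotated start at 0 in the direction of transcription (x axis, kb); boxes are peaks coloured by the log2 ratio of ChIP over input, and the percent gives the share of the span covered. NUP155, NUP160, NUP188 and CSE1L are filled by adjoining wide peaks, NDC1, NUP107 and TPR carry many separate peaks, NUP93 has most of its peaks in its far part, and IPO8 has 1 peak.

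Among the 26 structural nucleoporin genes, every gene had a peak, against 67.5% of all protein-coding genes, and 9 were covered at 50% or more, against 7.28%. Their coverage ran from 3.22 to 92.9% with a median of 33.4%. The 7 Y complex genes, which build the outer rings, had a median of 48.8%. NUP98, whose product is cleaved into the Y complex member NUP96 and the mobile nucleoporin NUP98, carried 47 peaks over 122.5 kb (chromosome 11, 3675010 to 3797554) and was covered over 69.7%, with its strongest peak at 4.58 (3682254 to 3684279). NUP43, NUP107 and NUP133 were covered over 48.8, 42.2 and 29.6%, with 9, 16 and 22 peaks. NUP37 had 4 peaks and 4.95%. The 5 inner ring genes also ranged widely: NUP188 and NUP155 were above 90%, NUP205 at 21.9%, NUP93 at 13.2% and NUP35 at 3.22%. Genes of the same subcomplex ranged from nearly filled to nearly free of peaks. Of the central channel genes, whose products bind one another in a fixed trimer, NUP62 was nearly filled, by peaks all shared with another coding gene. NUP58 and NUP54 were covered over 14.8 and 10.6%.

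On the cytoplasmic side NUP88 (81.2%) stood above its binding partner NUP214 (30.1%, 32 peaks), the ALADIN gene AAAS (28.3%) and the mRNA export factor gene NUP42 (19.7%). Of the 8 peaks of AAAS, 7 were shared with MYG1. RANBP2, which encodes the largest filament protein and a SUMO ligase, had the most peaks of all 55 genes, 58, but only 5.00% coverage. The annotated span of RANBP2 is 1123 kb and takes in 6 further protein-coding genes, whole or in part, and 39 of its peaks were shared. Up to the first of these genes, CCDC138, the first 67.3 kb of RANBP2 (chromosome 2, 108719482 to 108786749) held 17 peaks and were covered over 37.3%, while the remaining 1056 kb held 41 peaks and were covered over 2.94%. All 3 nuclear basket genes were covered over more than 30%, whereas 85.7% of all protein-coding genes were covered over 30% or less. NUP50 was covered over 56.4%, NUP153 over 40.8% with 32 peaks, and TPR, the main basket filament, over 32.6% with 22. The strongest peak of NUP153 (chromosome 6, 17615037 to 17706925) had 3.59 (17643975 to 17647234). Of the membrane-anchored nucleoporins, NDC1 was covered over 53.2% with 27 peaks, POM121 over 34.2% with 20, and NUP210 over 5.28% with 10. The strongest peak of NDC1 (chromosome 1, 53765478 to 53838296) had 3.71 (53832591 to 53834028).

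By family, the ranges of the transport receptors overlapped widely. The 11 importin beta family genes had a median coverage of 36.2% and the 6 exportin genes 45.9%, and together 7 of these 17 genes were covered at 50% or more, against 7.28% of all protein-coding genes. Coverage ran from 1.32 to 92.5% in the importin beta family and from 5.38 to 85.3% in the exportins. The 7 importin alpha genes, which encode the adaptors that read the classical import signal, had a median of 9.41% and a range from 0 to 75.2%. The median over all protein-coding genes was 1.52%. KPNA2 was the only importin alpha gene above 20%, and 80.2% of all protein-coding genes were covered over 20% or less. KPNA6, KPNA4, KPNA3 and KPNA1 were covered over 18.8, 13.4, 9.41 and 7.52%. KPNA7, an importin alpha known from oocytes and early embryos, had 1 peak of 500 bp over 73.6 kb (0.679%). KPNA5 had none over 60.7 kb, and none of the 50 kb on either side was covered. Below KPNB1, TNPO2 and IPO4, the importin beta family ran through IPO7 (63.7%, 21 peaks), IPO9 (44.9%), TNPO1 (36.2%, 25 peaks), IPO5 (24.3%), IPO11 (10.7%, 27 peaks over 215.8 kb), TNPO3 (7.56%) and IPO13 (6.69%), to IPO8, which had 1 peak in 66.9 kb (1.32%). IPO7 and IPO8, close paralogs of nearly equal span, had 21 peaks and 1 peak. Of the exportins, XPO1, which carries cargo with a leucine-rich export signal, was covered over 54.8% with 21 peaks. XPOT was covered over 50.4% with 26 peaks, XPO6, which exports actin, over 41.3% with 35, XPO7 over 20.9% and XPO4 over 5.38%. The strongest peak of XPOT (chromosome 12, 64404392 to 64451125) had 3.89 (64435563 to 64436316), and that of IPO11 (chromosome 5, 62412763 to 62628582) had 4.21 (62528211 to 62528749).

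The 3 Ran cycle genes all had peaks, against 67.5% of all protein-coding genes. RANGAP1 was covered over 67.8% of 57.6 kb with 11 peaks (chromosome 22, 41244779 to 41302369), of which 4 were 5 kb or wider and the strongest had a log2 ratio of 4.59. RCC1 was covered over 64.3% of 32.9 kb with 13 peaks. RAN, the shortest of the 55 genes with 5.61 kb, was covered over only 14.1% with 2 peaks. The stronger of them, at 3.51, lay over its start. The remaining NUP symbols were NUP210L and NUP62CL. NUP210L, known from the testis, was covered over 2.61% of 162.4 kb with 8 peaks, of which 5 were shared with TPM3. Among all protein-coding genes of 100 kb or more, the medians were 0.615% and 2 peaks. NUP62CL had no peak, and the nearest was 309344 bp from its start.

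Coverage was higher inside most of these genes than around them. In 47 of the 55 genes (85.5%) a larger percent of the span was covered than of the 50 kb on both sides, against 39.4% of all protein-coding genes, a share that counts genes with no coverage at all as not higher. The median coverage of those flanks was 5.01% for the pore and transport genes and 2.71% for all protein-coding genes. NUP153 was covered over 40.8% with flanks at 1.39%, IPO5 over 24.3% with flanks at 0.634%, NUP93 over 13.2% with flanks at 0.387%, and TNPO3 over 7.56% with flanks at 0%. NUP88 and CSE1L had the most covered flanks, 60.6 and 57.7%. Flanks also hold other genes, and their part in these values was not tested.

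Along the genes, coverage grew from the start and was highest in the later part. Strand was known for 49 of the 55 genes, and 46 of them were 10 kb or longer once RANBP2 was set aside for its span. Over these 46 genes the mean coverage was 25.5% in the first of 10 equal parts, 42.8% in the fifth, 46.7% in the eighth and 39.8% in the last. Over the 11551 protein-coding genes with a known start and at least 10 kb, the same means were 11.3%, 12.2%, 13.8% and 12.9%, with the lowest value, 8.38%, in the second part. By number, the first part held 9.26% of the 648 peaks in the 46 genes, against 11.9% in all protein-coding genes. With RANBP2, whose first part holds 29 peaks and also some of CCDC138, that share was 12.6% of 706 peaks.

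**Figure D4:**
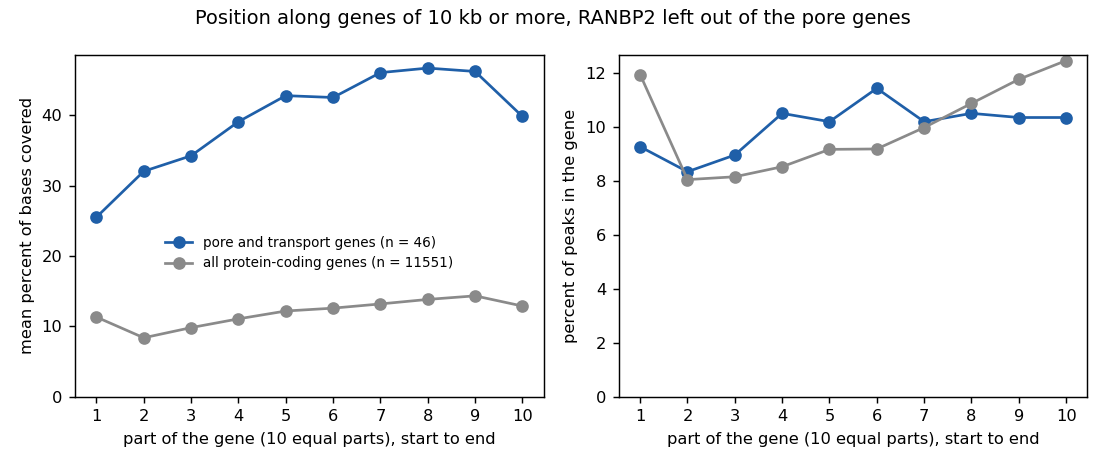
Mean percent of bases covered (left) and percent of the peaks inside the gene (right) in each of 10 equal parts of genes of 10 kb or more, from start to end on the gene's strand, for 46 pore and transport genes without RANBP2 and for all 11551 protein-coding genes with a known start. Coverage of the pore and transport genes runs from 25.5% in the first part to 46.7% in the eighth.

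Gene ends and promoter windows held peaks in most, but not all, of these genes. A midpoint within 1 kb of either gene end was found in 38 of the 55 genes (69.1%, interval 55.2 to 80.9%), against 41.9% of all protein-coding genes. With only the stronger peaks of the list, at log2 ratios of 2.99 or more, the count was 12 of the 55 (21.8%), against 16.5%, a share near that of all genes. Promoter windows of RefSeq, from 250 bases before to 50 after each annotated start, were at hand for 49 of the 55 genes, in all but KPNA4, KPNA5, NUP43, KPNA7, XPO7 and KPNB1. A peak overlapped at least 1 window in 29 of the 49 (59.2%, interval 44.2 to 73.0%), against 34.4% of protein-coding genes with a window. Among the genes covered at 50% or more the count was 15 of 18, against 77.3% of all protein-coding genes so covered. Among the others it was 14 of 31, against 30.9%. Coverage and a peak over the window share bases, so these values are not independent. The exceptions among the well covered genes were NUP98, KPNA2 and XPOT, whose nearest peaks lay 2723, 1002 and 177 bp from the start. In the 20 genes with no peak over a window, the nearest peak lay a median of 3282 bp away. TPR, NUP107 and NUP133, which all had 16 or more peaks, had none closer than 5756, 5151 and 3444 bp to the start.

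Among the 29 genes with a peak over a promoter window, the log2 ratio of that peak was highest at NUP50, with 3.84, then 3.55 at NDC1, 3.51 at RAN and 3.21 at TNPO1. At NUP50 the peak ended 39 bp before the annotated start, and at NUP155 the peak in the window also stopped short of the start, so neither covered the start itself. The windows of the first 4 genes are given because the strongest of these peaks overlap them. They were read from RefSeq (GRCh38.p14, the assembly of hg38) on the strand of the gene, 5′ to 3′, and capitals mark matches to the motifs named below. The peak overlapped all 300 bases at NDC1, RAN and TNPO1, and 212 bases at NUP50. At NUP50 and TNPO1 the window belongs to the second of a pair of annotated starts.
NUP50 (chr22:45164421-45164720, plus strand): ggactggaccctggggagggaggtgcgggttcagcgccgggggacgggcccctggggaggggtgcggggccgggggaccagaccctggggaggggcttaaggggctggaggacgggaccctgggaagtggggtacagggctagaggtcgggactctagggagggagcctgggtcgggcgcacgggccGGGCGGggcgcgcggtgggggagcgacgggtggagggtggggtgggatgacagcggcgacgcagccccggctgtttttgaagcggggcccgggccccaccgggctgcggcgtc
NDC1 (chr1:53838247-53838546, minus strand): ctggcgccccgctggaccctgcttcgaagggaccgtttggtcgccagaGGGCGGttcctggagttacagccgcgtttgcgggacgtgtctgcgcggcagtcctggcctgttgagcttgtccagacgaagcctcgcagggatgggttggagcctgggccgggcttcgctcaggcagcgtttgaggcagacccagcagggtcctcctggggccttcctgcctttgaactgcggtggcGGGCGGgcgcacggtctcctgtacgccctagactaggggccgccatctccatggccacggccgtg
RAN (chr12:130871816-130872115, plus strand): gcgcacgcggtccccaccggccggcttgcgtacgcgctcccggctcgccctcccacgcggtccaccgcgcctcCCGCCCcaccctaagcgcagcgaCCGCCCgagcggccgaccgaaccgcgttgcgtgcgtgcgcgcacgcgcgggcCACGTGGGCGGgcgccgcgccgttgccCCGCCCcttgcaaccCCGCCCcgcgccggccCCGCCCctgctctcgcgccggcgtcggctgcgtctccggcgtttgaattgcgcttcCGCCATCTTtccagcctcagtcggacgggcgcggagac
TNPO1 (chr5:72847889-72848188, plus strand): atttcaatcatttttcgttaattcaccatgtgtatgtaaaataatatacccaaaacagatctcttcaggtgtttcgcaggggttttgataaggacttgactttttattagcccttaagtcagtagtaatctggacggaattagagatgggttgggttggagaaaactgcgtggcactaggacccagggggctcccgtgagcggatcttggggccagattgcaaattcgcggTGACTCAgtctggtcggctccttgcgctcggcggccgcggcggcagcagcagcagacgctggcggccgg

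The windows of NDC1 and RAN differ in composition as well as in motifs. RAN had 57 CpG dinucleotides and 6 matches to the SP/KLF motif GGGCGG, its match in the sense orientation overlapping a CACGTG E-box, and a match to the YY1 motif AAGATGGCG on the other strand. NDC1 had 26 CpG and 2 SP/KLF matches, NUP50 had 27 CpG and 1 SP/KLF match, and TNPO1 had 18 CpG and 1 match to the AP-1 motif TGACTCA. Over the 33 windows of these genes that lay under a peak, the median was 26 CpG, against 29 over the 6735 windows of all protein-coding genes under a peak and 21 over all 22131 windows. Motifs were searched on both strands. The SP/KLF motif was found in 19 of the 33 windows (57.6%), against 75.8% of all windows under a peak and 56.3% of all windows. The E-box CACGTG was found in 7 (21.2%), against 10.6% and 8.34%, the YY1 motif in 5 (15.2%), against 4.39% and 2.42%, and the ETS motif CCGGAAGT in 5 (15.2%), against 9.80% and 5.34%. The NF-Y motif CCAAT was found in 12 (36.4%), against 32.9% and 34.6%, the NRF1 motif GCGCATGCG in 2 (6.06%), against 3.37% and 2.36%, and AP-1 in 1 (3.03%), against 2.78% and 4.01%. All 64 windows of these genes, which include the 33, also had a median of 26 CpG, with ETS in 14.1% and NRF1 in 6.25%. For CpG, ETS and NRF1, windows under a peak thus differed little from the windows of these genes in general. SP/KLF (32 of 64), E-box (9 of 64, 14.1%), YY1 (5 of 64, 7.81%) and AP-1 (1 of 64, 1.56%) were less frequent in the 64 than in the 33. For AP-1 both values rest on the same 1 window, and for YY1 on the same 5. NF-Y (43.8%) was more frequent. Some of the 33 windows overlap, since several genes have more than 1 annotated start.

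The strongest single peaks were not in the most covered genes. A log2 ratio above 5 was reached in 12 of the 53 genes with a peak (22.6%, interval 12.3 to 36.2%), against 14.0% of all protein-coding genes with a peak. Peak number, which was higher in the pore and transport genes, was not matched. The highest ratio was 5.86 in KPNA1 (chromosome 3, 122450917 to 122451510), followed by 5.79 in NUP214 (chromosome 9, 131205452 to 131206183). A ratio of 5.72 was listed for NUP205 (chromosome 7, 135583501 to 135584137), POM121 (chromosome 7, 72927140 to 72927655) and XPO6 (chromosome 16, 28093222 to 28093742). A ratio of 5.65 was listed for IPO5 (chromosome 13, 97950380 to 97951014), NUP210 (chromosome 3, 13375944 to 13376495), XPO4 (chromosome 13, 20881859 to 20882418) and RANBP2 (chromosome 2, 109056077 to 109056676). The peaks of IPO5 and XPO6 lay outside the gene, before its start in IPO5 and past its end in XPO6, and that of RANBP2 lay beyond its first 67.3 kb. Inside the gene the strongest peak had 4.61 in IPO5 and 5.49 in XPO6. TNPO3, KPNA7 and XPO7 had 5.49. All 12 genes were covered over 41.3% of their span or less, whereas in the 11 genes covered at 75% or more the strongest peak had log2 ratios of 3.14 to 3.86. Linear ratios in the list are fractions of whole numbers multiplied by the same step, 2.64, and the strongest peak of all 12 genes was a whole multiple of it. The step was chosen so that nearly all of the top 1% of ratios are whole multiples. For the strongest peaks this outcome was therefore in part set by the choice of step. Which read counts give such a multiple was not tested, and the counts themselves are unknown. Without whole multiples, NUP214 (5.16) and XPO7 (5.26) still had a peak above 5, while KPNA1 stood at 3.89. Over the 55 genes 69 of the 819 peaks (8.42%) were whole multiples, against 12.4% of the list.

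**Figure D5:**
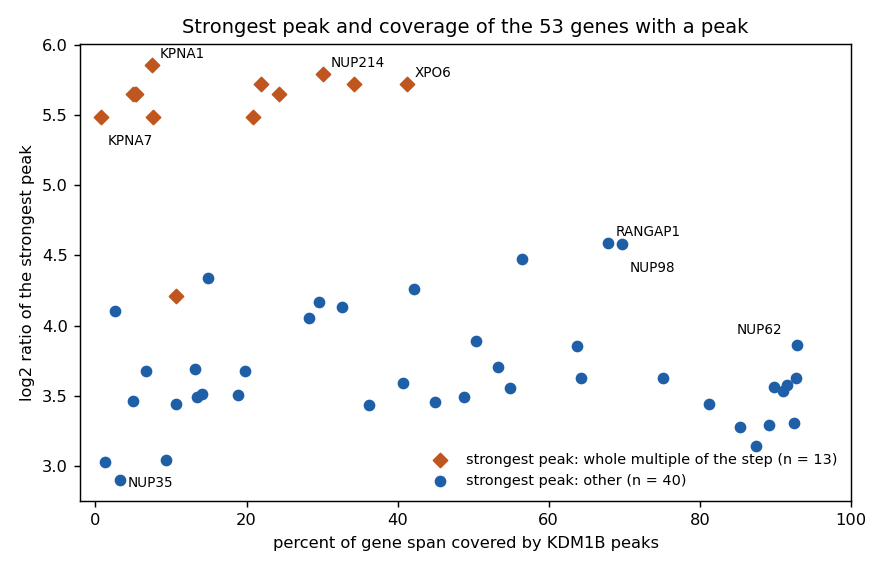
Log2 ratio of the strongest peak (y axis) against the percent of the span covered (x axis) for the 53 pore and transport genes with a peak; diamonds mark the 13 genes whose strongest peak is a whole multiple of the common step, circles the others. All genes above 5 are diamonds with 41.3% coverage or less, and the most covered genes lie between 3.14 and 3.86. The step was chosen so that nearly all of the top 1% of ratios in the list are whole multiples.

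Gene length went with both measures in opposite directions. Across the 55 genes, Spearman's rho was 0.52 between span and number of peaks and -0.39 between span and percent covered. Over all 19970 protein-coding genes the values were 0.30 and 0.08. These are descriptions across genes of 1 pair of libraries, and genes are not independent replicates.

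Some of these genes have near copies that could share reads. POM121 and its near copy POM121C were much alike, with 20 peaks and 34.2% coverage in POM121 and 22 peaks and 32.3% in POM121C. The sources used here do not state how reads were placed between the copies, so the 2 values may not be independent. Of the 7 RGPD genes, copies that arose from RANBP2, 4 had a peak, against 67.5% of all protein-coding genes. RGPD5 lies partly inside the annotated span of RANBP2, and its 4 peaks are also among the 58 of RANBP2. Coverage was 0% at RGPD1, RGPD3 and RGPD4, and reached at most 8.14%, at RGPD8, against 37.3% over the first 67.3 kb of RANBP2. How reads were placed between RANBP2 and the RGPD genes is likewise not stated, and its part in these values was not tested.

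Other genes of the same pathway, outside the symbol rule, were read in the same way. Of 24 such genes 22 had a peak, against 67.5% of all protein-coding genes, and 17 had one within 1 kb of a gene end, against 41.9%. At least 50% was covered in 7, against 7.28%, and the median coverage was 36.5%, against 1.52%, with a median span of 33.0 kb, against 24.2 kb. The highest of the 24 were DDX19A, a paralog of the mRNA export helicase DDX19B (95.1%), RAE1, an mRNA export factor (83.9%), XPO5, the exportin of microRNA precursors (83.2%), and NXF1, the main mRNA export receptor (80.2%). SEH1L, AHCTF1 and SEC13, the Y complex genes whose symbols fall outside the rule, were covered over 60.4, 36.6 and 36.5%. NXT2 and RANBP6 had no peak, and RANBP17, with 438.0 kb the longest of the 24, was covered over 0.694%.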

How the data were processed

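The 2 libraries, 1 anti-FLAG ChIP and 1 input, enter through a deposited list of ChIP over input peaks. The submitters' processing notes name hg38, Bowtie2 2.2.9 and Trim Galore 0.4.5. For the peak caller, thresholds and any joining of neighbours, the sources used here give nothing. Each peak's value is the authors', as deposited without a header, and was read as a log2 ratio of ChIP over input. The base was settled from the values, 2 to that power being a common step times ratios of whole numbers. The step was the most common ratio over the smallest whole number that made nearly all of the top 1% whole multiples (tolerance 1e-06). Start and end are the other deposited values, and whether starts count from 0 is unknown.

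Peaks were set against RefSeq gene spans (GRCh38.p14) by midpoint, with 5 kb on each side, and coverage is the share of span bases under a peak. Strand and starts came from RefSeq promoter windows, which were at hand for 15811 of the 19970 genes. Exons were not used here, and 1 gene of the list outside the symbol rule is not reported here. Shares carry Clopper-Pearson intervals (scipy 1.17.1, Python 3.11.15). The counting was tested on simulated peaks.

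Every gene is named because the symbols fix the list. Peak number, coverage and strongest peak with its position go to the 8 genes highest by coverage, by number of peaks and by strongest peak, and to those without a peak. Genes, roles and lists were chosen with earlier results of these data known. With 1 library per group no test was possible. Other peak selections, distances, overlap rules, joining, shared peaks and span classes were tried. The alternatives on RANBP2 and on wide peaks were chosen after seeing the data.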

Additional observations from a re-analysis of the deposited data

How the results depend on the processing

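The 5 main values were 53 genes with a peak, 819 peaks, 30.1% median coverage, 38 genes with a gene-end peak and a median strongest log2 ratio of 3.69. A count of genes was taken as changed when it left its binomial interval, and other values when they moved by over 1.5 times. With only the stronger peaks (log2 ratio of 2.99 or more) 401 peaks, 15.5% median coverage and 12 genes with a gene-end peak (21.8%, against 16.5% of all protein-coding genes) were left, and the number of genes with a peak was 52, against 55.7%. Joining peaks within 1 kb gave 413 peaks and 26 genes with a gene-end peak (47.3%, against 36.2%), since it moves midpoints. Gene-end peaks were found in 27 genes at 500 bp (49.1%, against 31.4%), in 47 at 5 kb (85.5%, against 59.4%) and in 28 without peaks shared with another coding gene (50.9%, against 22.7%). Median coverage was 29.6% without whole multiples (all protein-coding genes 1.05%), 24.3% without shared peaks (0%), 21.9% without peaks of 5 kb or more, 31.4% without RANBP2 and 32.6% with RANBP2 taken up to CCDC138. A background weighted to the same span classes gave 41.3 of 55 genes with a peak. For coverage it gave 2.78%, which is a mean of the class medians weighted by the pore and transport genes per class, not a median. The values that counted as changed were 401 and 413 peaks, 15.5% coverage, and 12, 26, 27, 28 and 47 genes with a gene-end peak. The other alternatives, named here or not, stayed within the limits. Of these, the span class background leaves the values of the 55 genes as they are, and the overlap rule does not enter coverage. Those outcomes were fixed in advance. Read counts, and so the error of single ratios, are unknown. No paired analysis was possible because each group holds 1 library.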
